A study of Rattus norvegicus with 9 samples.

Results

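Cultured heart cells from newborn rats were infected with an adenovirus for Nfya, an adenovirus for Nfe2l1 or an adenovirus for GFP, and the genes described here are those on which both factor viruses fell on the same side of GFP. A gene was counted as common to the 2 factors when its counts per 1000000 (CPM, the gene's share of all gene counts of that library) in all 6 factor libraries lay above the highest of the 3 GFP libraries, or below the lowest. Of 28935 genes in the count table, 5765 met this rule, 2690 of them above GFP and 3075 below. Counts were high enough for a test in 14151 genes, which held 5275 of the 5765: 2503 above GFP (17.7% of the genes tested) and 2772 below (19.6%). The other 490 genes (187 above and 303 below) had too few counts to be tested. They enter the shares of library counts, the summed levels of gene lists and the counts under other settings that follow. They were not compared between the factors. Direction and size against GFP chose these genes, so they are given as a description without a test. The comparison that was tested, gene by gene, is the difference between the 2 factor viruses. The rule did not use that difference directly, but it kept a gene only when all 6 factor libraries cleared GFP. The choice of genes is therefore not independent of the difference, and shares of called differences among these genes are a description.

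NF-Y is a transcription factor of 3 subunits that binds the CCAAT box of promoters. NFYA is the subunit that reads the box, and NFYB and NFYC hold it on DNA through a histone-like fold. NFE2L1, also called NRF1, is a cap'n'collar leucine zipper factor that is made as a protein of the endoplasmic reticulum, is cut free, and binds antioxidant response elements together with a small MAF protein. It is best known for raising proteasome genes when the proteasome is impaired. Both factors are expressed in most tissues, and the heart muscle cell, which seldom divides after birth, shares its culture with fibroblasts, endothelial cells and other cells of the ventricle.

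The cells were neonatal ventricular myocytes of Sprague-Dawley rats aged 1 to 2 days. Per the labels they spent 48 h in medium with 3% fetal bovine serum, and each well of a 12-well plate was then given 8 µL of adenovirus in 1 mL of serum-free medium for 48 h before RNA was taken for stranded mRNA libraries. Each of the 3 groups had 3 libraries, all groups carried an adenovirus, and an uninfected group was not analysed here. The promoter that drives the viral genes is not given in the sources used here, nor is the species of the factor cDNA. No label says that the 3 libraries of a virus are separate cultures, and each p-value therefore reflects spread between libraries that could be technical. In genes above 0.1 counts per base, 5 of the 9 pairs of libraries within a group, all 3 Nfya pairs among them, differed by less than sampling noise (chi-square per degree of freedom 0.77 to 0.939), and the other 4 by more (1.19 to 1.61). Library totals ran from 5712123 to 7310774 counts, and the same 3 GFP libraries were the reference for both factors.

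The genes themselves gave no firm check of the labels. Nfya stood at 81.2, 81.7 and 77.0 CPM with GFP, at 89.8, 88.8 and 90.2 in the Nfya libraries and at 89.6, 90.3 and 95.1 in the Nfe2l1 libraries. Its difference between the factors was -0.05 ± 0.04 on the log2 scale (SE; adjusted p = 0.361, edgeR's quasi-likelihood test), so Nfya is itself among the genes above GFP under both viruses and was not called higher under its own. Nfe2l1 stood at 241, 234 and 244 CPM with GFP, 219, 225 and 229 in the Nfya libraries and 239, 241 and 233 in the Nfe2l1 libraries, so its own virus gave no higher count than GFP. Between the factors it was called higher under its own virus (-0.10 ± 0.03, adjusted p = 0.0120, edgeR's quasi-likelihood test), a call lost with DESeq2 (0.115) and when replicate 1 of Nfe2l1 (0.107), of Nfya (0.0622) or of GFP (0.0611) was left out. Groups are therefore named by their labels, and each direction rests on them.

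The shares of library counts, taken over all genes that met the rule, tested or not, were as follows. Genes above GFP held 12.98%, 12.94% and 12.66% of the counts with GFP, 17.17%, 17.15% and 17.24% with Nfya, and 17.14%, 17.15% and 17.33% with Nfe2l1. Genes below GFP held 25.63%, 25.66% and 25.75% with GFP, 21.37%, 21.34% and 21.36% with Nfya, and 20.67%, 20.63% and 20.80% with Nfe2l1. The rule fixes that the factor libraries differ from GFP in these shares. It does not fix how the factors compare: the Nfya and Nfe2l1 libraries overlapped on the genes above GFP when scaled by library totals, but with TMM scaling every Nfe2l1 library (17.30%, 17.42% and 17.27%) was above every Nfya library (17.06%, 17.05% and 17.12%). On the genes below GFP every Nfe2l1 library was lower than every Nfya library.

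**Figure D1:**
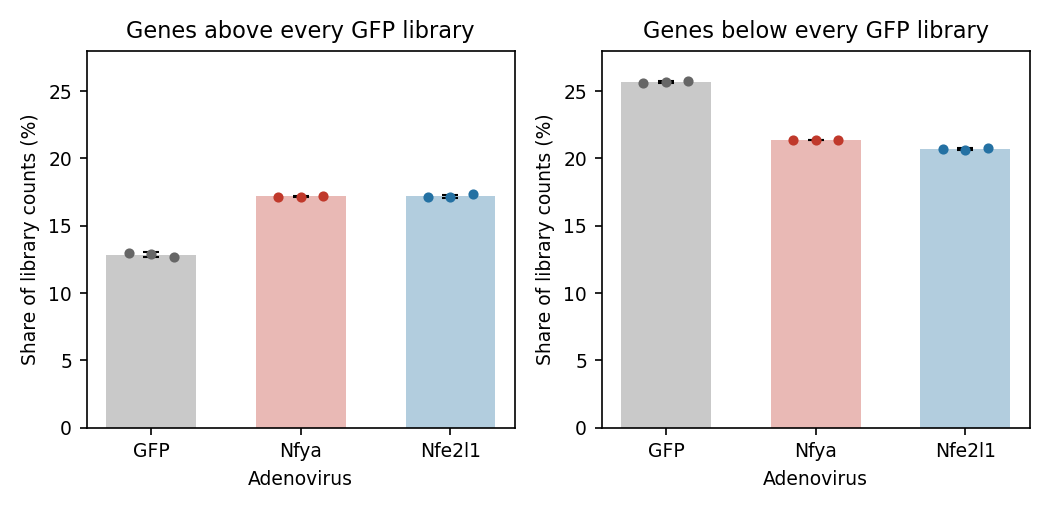
Share of each library's counts (%, vertical axis) held by the 2690 genes above every GFP library (left) and the 3075 genes below (right), by adenovirus; bars are means of 3 libraries, whiskers the SD, points the libraries. With GFP the genes above hold 12.86% ± 0.174, and with Nfya and Nfe2l1 17.19% ± 0.0473 and 17.21% ± 0.107 (SD, n = 3).

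The rule was met by 17.7% of all genes tested on the higher side and 19.6% on the lower side, and every count for a gene group is to be read beside these shares. A fit of the mean of both factors against GFP called 27.4% of all genes tested higher and 29.1% lower at an adjusted p below 0.05 (edgeR's quasi-likelihood test), and 2425 of the 2503 and 2694 of the 2772 genes were among those calls. Because the rule uses the same contrast, nothing is read from that overlap. Most differences from GFP were small. The median log2 fold change of the genes above GFP was 0.51 under Nfya and 0.55 under Nfe2l1, against -0.02 and -0.01 over all genes tested, and that of the genes below was -0.33 and -0.40. At least 2-fold under both viruses were 571 genes above (22.8%) and 323 below (11.7%), at least 4-fold 110 and 69, and below 1.5-fold under both 1128 and 1696.

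The genes above GFP began from lower levels than the genes below. Per length, their median level with GFP was 10.7 RPKM (reads per kilobase and per 1000000 reads, the authors' unit), that of the genes below 25.9, and that of all genes tested 19.6. At the edge of the rule stood small differences. Tceanc was just inside, with 7.34, 7.22 and 6.65 CPM with GFP and a lowest factor library of 7.34, while Acly, which makes cytosolic acetyl-CoA, was just outside because its highest GFP and its lowest factor library both stood at 263 CPM. On the lower side Snrpa1 was just inside, its lowest GFP and its highest factor library both near 58.7 CPM, and Cdk17 just outside, both at 81.9.

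Furthest above GFP under both viruses were 15 genes whose smaller fold of the 2 ran from 5.69 to 14.9, all of them scarce with GFP (means of 0.1 to 7.58 CPM). They include secreted and cell surface proteins, lipid and retinoid genes and markers of the mesothelium. Ces2g, a carboxylesterase gene of a family of close copies whose reads may be shared, stood at 0.306, 0.442 and 0.525 CPM with GFP, at 6.94, 6.73 and 6.16 with Nfya and at 8.62, 6.02 and 8.07 with Nfe2l1. Islr, which encodes a leucine-rich repeat protein of mesenchymal cells, stood at 2.14, 2.21 and 1.23 CPM with GFP, 19.0, 19.3 and 16.8 with Nfya and 22.6, 23.9 and 22.0 with Nfe2l1. Alox5, the 5-lipoxygenase that starts leukotriene synthesis, stood at 1.83, 2.51 and 1.05 CPM with GFP, 13.4, 16.5 and 15.3 with Nfya and 15.2, 14.2 and 16.3 with Nfe2l1. In all 3 genes the factor libraries lie far from GFP, and those of Ces2g and Alox5 overlap between the factors.

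Rbp2, a cellular retinol-binding protein, had 1.53, 2.06 and 1.93 CPM with GFP, 14.7, 12.7 and 14.4 with Nfya and 16.3, 13.9 and 13.4 with Nfe2l1. Car3, a cytosolic carbonic anhydrase, had 3.82, 5.46 and 3.68 CPM with GFP, 24.1, 27.4 and 26.7 with Nfya and 27.3, 24.2 and 26.9 with Nfe2l1. Igfbp2, which binds insulin-like growth factors outside the cell, had 1.22, 2.06 and 1.23 CPM with GFP, 9.72, 10.1 and 9.61 with Nfya and 10.0, 10.0 and 11.4 with Nfe2l1. No difference between the viruses was called for these 3 genes, whose log2 difference Nfya minus Nfe2l1 was -0.08 ± 0.12 for Rbp2, -0.03 ± 0.09 for Car3 and -0.12 ± 0.14 for Igfbp2 (SE; adjusted p = 0.622, 0.835 and 0.520, edgeR's quasi-likelihood test). Clec2d2, a C-type lectin gene with near copies that may share reads, and Cdh7, a cadherin, likewise had no called difference (0.12 ± 0.15 and 0.44 ± 0.22).

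Others of the 15 were above GFP with both viruses and higher again with Nfe2l1. Msln, the mesothelial surface protein mesothelin, stood at 1.99, 1.18 and 0.700 CPM with GFP, 9.87, 12.7 and 14.6 with Nfya and 22.0, 20.7 and 28.3 with Nfe2l1 (difference -0.96 ± 0.15, adjusted p = 6.13e-05, edgeR's quasi-likelihood test). Upk1b, a tetraspanin of the urothelium and mesothelium, stood at 8.86, 7.22 and 6.65 CPM with GFP, 44.4, 43.0 and 44.3 with Nfya and 50.7, 51.1 and 58.4 with Nfe2l1 (-0.31 ± 0.06). Sytl1, a vesicle trafficking protein, stood at 0.306, 0.590 and 0.700 CPM with GFP, 4.01, 3.97 and 3.45 with Nfya and 13.1, 10.6 and 13.0 with Nfe2l1 (-1.70 ± 0.17). In each the 3 groups are fully apart, with GFP lowest and Nfe2l1 highest, and so they are for Cpz, an extracellular carboxypeptidase that binds Wnt proteins (-0.65 ± 0.10). Of the 15 genes 7 were called higher under Nfe2l1 (25.4% of all genes tested) and 1 under Nfya (25.2%), the neural adhesion gene Cntn6 (0.82 ± 0.23, adjusted p = 0.00842), and 7 had no called difference. Among the 7 higher under Nfe2l1, the call for Islr was lost with DESeq2 (adjusted p = 0.133), and that for the serpin gene Serpina9 with DESeq2 (0.115) and without Nfya replicate 1 (0.118), Nfya replicate 2 (0.127), Nfe2l1 replicate 2 (0.0921) or Nfe2l1 replicate 3 (0.067).

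**Figure D2:**
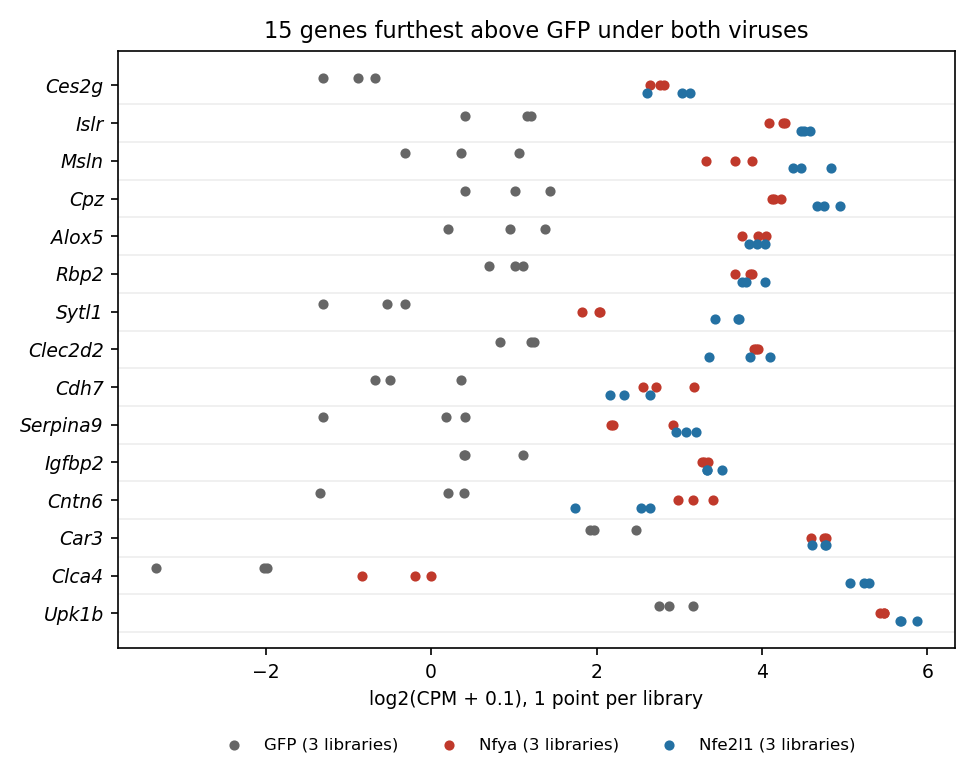
The 15 genes furthest above GFP under both viruses, 1 point per library, as log2(CPM + 0.1) on the horizontal axis. All factor points lie to the right of the GFP points of the same gene; for Sytl1 and Clca4 the Nfe2l1 points stand apart from the Nfya points, while for Alox5, Rbp2 and Car3 they overlap.

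Furthest below GFP under both viruses were 15 genes whose smaller fold of the 2 ran from 5.62 to 48.4. Among them are genes best known from neurons (Htr3a, Cpne6, Dlgap3, Pou3f1 and Dock3), from T cells (Cd2) and from liver (Apoa2). Htr3a, a subunit of the serotonin-gated ion channel, stood at 72.4, 75.8 and 72.1 CPM with GFP, 4.78, 3.97 and 4.50 with Nfya and 2.00, 2.78 and 3.15 with Nfe2l1. Slc24a2, a sodium, calcium and potassium exchanger, stood at 19.6, 19.8 and 22.9 CPM with GFP, 2.78, 3.21 and 2.10 with Nfya and 2.62, 2.16 and 2.60 with Nfe2l1. Clec18a, a secreted lectin, kept 2 counts in the Nfya and 1 in the Nfe2l1 libraries against 110 with GFP, a ratio of 77.0 for both factors together (95% exact interval 25.7 to 379, counting error only). In all 3 genes every factor library is far under the lowest GFP library, and the Nfya and Nfe2l1 libraries overlap for Slc24a2 but not for Htr3a.

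Syt7, a calcium sensor for vesicle fusion, stood at 17.4, 19.5 and 20.7 CPM with GFP, 3.09, 2.29 and 3.75 with Nfya and 2.16, 1.08 and 1.78 with Nfe2l1. Dlgap3, a scaffold of the synapse, stood at 11.5, 11.9 and 11.4 CPM with GFP, 1.39, 1.68 and 1.50 with Nfya and 1.08, 0.926 and 0.684 with Nfe2l1. Dock3, an activator of the GTPase Rac, stood at 32.2, 29.8 and 26.3 CPM with GFP, 5.25, 5.50 and 4.50 with Nfya and 3.54, 1.85 and 4.65 with Nfe2l1. All 3 were far below GFP with either virus, and the Nfya and Nfe2l1 libraries overlapped for Dock3 only. Gcgr, the glucagon receptor, which raises cyclic AMP, showed the same pattern, at 13.9, 15.6 and 12.1 CPM with GFP, 1.54, 2.60 and 3.30 with Nfya and 1.69, 2.01 and 2.46 with Nfe2l1. Of these 15 genes 2 were called higher under Nfya (25.2% of all genes tested) and 1 under Nfe2l1 (25.4%), and 12 had no called difference. Low counts in the factor libraries limit such calls, so a missing call is no evidence of equal levels. Dock3 gained a call with no filter on low counts (adjusted p = 0.0473, edgeR's quasi-likelihood test) and without Nfe2l1 replicate 3 (0.0106). Chst9, a sulfotransferase, gained one with no filter (0.0487) and without Nfe2l1 replicate 1 (0.0166), and Vwa2 without Nfe2l1 replicate 2 (0.0336). The calls were Nfya above Nfe2l1 for Htr3a (0.71 ± 0.19, adjusted p = 0.00976, lost without Nfe2l1 replicate 1 at 0.0687) and Syt7 (0.84 ± 0.29, 0.0236, lost with DESeq2 at 0.0575 and without Nfya replicate 1, Nfya replicate 3 or Nfe2l1 replicate 2 at 0.0544 to 0.113), and Nfe2l1 above Nfya for the apolipoprotein gene Apoa2.

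**Figure D3:**
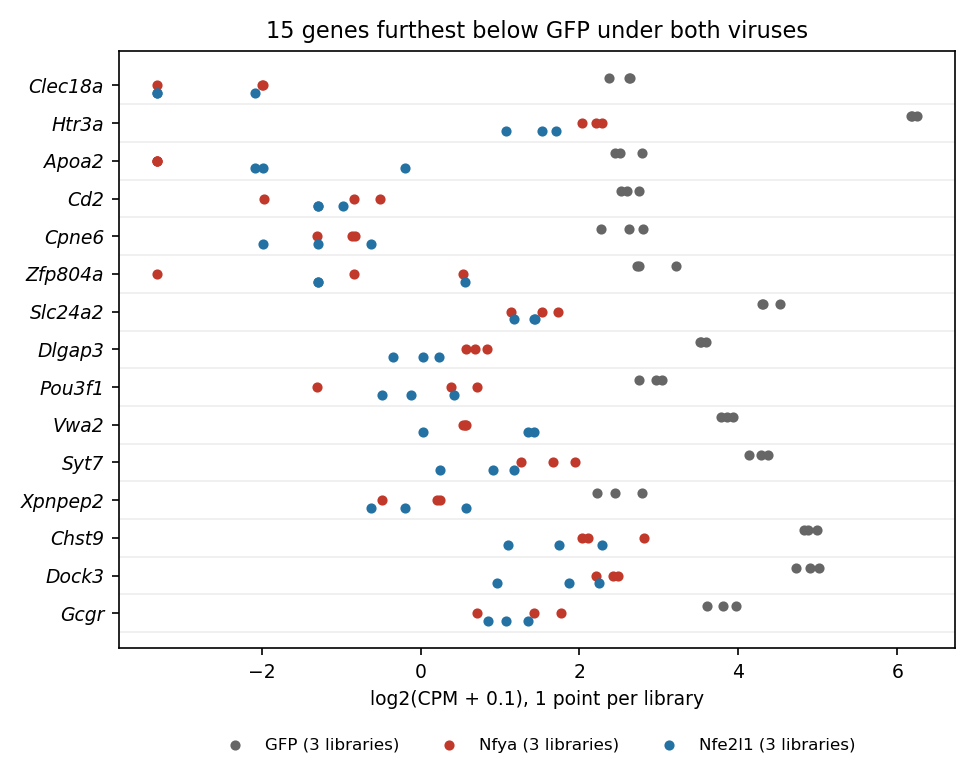
The 15 genes furthest below GFP under both viruses, 1 point per library, as log2(CPM + 0.1) on the horizontal axis. All factor points lie to the left of the GFP points of the same gene, and the Nfya and Nfe2l1 points stand apart for Htr3a, Apoa2, Dlgap3 and Syt7 only.

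Promoter sequence from RefSeq (build GRCr8) could be matched to 19 of these 30 genes. The 250 bases before the start were searched on both strands for CCAAT, the NF-Y box, and TGACNNNGC, the core bound by cap'n'collar and small MAF proteins. Either was held by 5 of the 19 windows. For CCAAT the share over all genes tested with a single promoter sequence was 35.2%, and a share for either box was not computed. Only the windows with a match are printed, with the letters of each match in capitals (a match on the other strand reads as its reverse complement, such as ATTGG for CCAAT). Ces2g (chr19:49856420-49856669, plus strand) holds both boxes, Serpina9 (chr6:128700785-128701034, minus strand) the second alone, Clca4 (chr2:236565097-236565346, minus strand) 5 CCAAT, of which 2 overlap on opposite strands, and 1 TGACNNNGC, Upk1b (chr11:75459131-75459380, plus strand) 1 CCAAT, and Slc24a2 (chr5:106787781-106788030, minus strand), the only gene below GFP among them, 2 CCAAT.
Ces2g: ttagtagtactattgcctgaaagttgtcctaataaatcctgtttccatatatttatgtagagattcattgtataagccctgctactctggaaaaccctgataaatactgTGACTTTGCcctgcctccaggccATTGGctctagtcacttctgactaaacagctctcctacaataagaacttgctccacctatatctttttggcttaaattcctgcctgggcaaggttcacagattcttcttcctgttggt
Serpina9: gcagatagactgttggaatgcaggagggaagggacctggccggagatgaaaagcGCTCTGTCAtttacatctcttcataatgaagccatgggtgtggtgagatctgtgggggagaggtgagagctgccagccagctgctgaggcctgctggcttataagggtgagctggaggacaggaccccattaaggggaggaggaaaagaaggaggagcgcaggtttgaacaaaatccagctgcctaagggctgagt
Clca4: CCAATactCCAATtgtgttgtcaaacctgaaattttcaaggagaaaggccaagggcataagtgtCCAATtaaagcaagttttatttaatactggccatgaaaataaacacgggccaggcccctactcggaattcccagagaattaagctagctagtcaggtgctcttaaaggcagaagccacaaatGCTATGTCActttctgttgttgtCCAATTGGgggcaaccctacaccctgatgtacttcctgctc
Upk1b: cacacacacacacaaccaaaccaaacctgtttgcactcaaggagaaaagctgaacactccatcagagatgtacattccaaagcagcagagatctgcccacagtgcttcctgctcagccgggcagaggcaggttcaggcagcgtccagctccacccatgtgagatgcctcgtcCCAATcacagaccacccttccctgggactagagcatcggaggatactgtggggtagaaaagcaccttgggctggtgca
Slc24a2: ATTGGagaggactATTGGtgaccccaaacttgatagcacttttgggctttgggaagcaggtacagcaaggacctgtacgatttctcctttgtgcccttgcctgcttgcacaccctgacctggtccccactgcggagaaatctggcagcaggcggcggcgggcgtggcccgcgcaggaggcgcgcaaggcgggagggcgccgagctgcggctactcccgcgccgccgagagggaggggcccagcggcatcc
Over all 9625 genes tested with a single promoter sequence, 35.2% held CCAAT and 12.6% held TGACNNNGC in this window. TGANTCA, the AP-1 site, which can overlap TGACNNNGC, was searched as well and was held by 4.44%, GGAATG, the TEAD site, by 9.95% and GGGCGG, the SP1 site, by 59.1%. A match is a description of the letters, not a bound site. Only 69.1% of the genes above GFP and 68.3% of those below had a sequence, and their motif shares were not tested. CCAAT was held by 35.1% of those above and 31.1% of those below, and TGACNNNGC by 12.6% of each. TGANTCA was held by 5.61% and 2.85%, GGAATG by 11.4% and 9.35%, and GGGCGG by 53.9% and 64.0%. Among genes at least 2-fold from GFP under both viruses, CCAAT was held by 30.2% above and 24.8% below, and TGACNNNGC by 9.55% and 9.81%. In the same order TGANTCA was held by 9.55% and 2.34% of them, GGAATG by 14.6% and 10.3%, and GGGCGG by 44.0% and 52.3%. Median GC content of these windows was 56.4% above and 62.6% below, against 60.4% over all genes tested with a sequence. These shares were not tested either.

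Extracellular matrix genes were mostly above GFP. Of 22 collagen genes tested 16 were above every GFP library and 2, Col4a6 and Col18a1 of basement membranes, below. Of 25 genes for elastic fibres and matrix cross-linking 19 were above and 0 below (1 below when GFP replicate 3 is left out), and of 27 matrix proteases and their inhibitors 18 were above and 0 below. Of 27 matricellular proteins and proteoglycans 13 were above and 1, the basement membrane protein gene Nid2, below. The median log2 fold change over all 25 elastic fibre genes was 0.735 under Nfya and 0.70 under Nfe2l1, and over the 22 collagens 0.77 and 0.60, against -0.02 and -0.01 over all genes tested.

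Individual matrix genes show how even the response could be. Ltbp2, a microfibril protein of the family named for binding latent TGF-beta, stood at 61.7, 56.2 and 46.4 CPM with GFP, 263, 257 and 260 with Nfya and 256, 249 and 257 with Nfe2l1. Col5a3, a chain of the type V collagen that starts fibrils, stood at 35.5, 36.4 and 37.8 CPM with GFP, 140, 139 and 146 with Nfya and 140, 145 and 150 with Nfe2l1. Col11a1, another fibril-starting chain, stood at 65.6, 59.3 and 61.3 CPM with GFP, 181, 164 and 173 with Nfya and 172, 162 and 183 with Nfe2l1. All 3 reached nearly the same level with either virus, and their differences were 0.01 ± 0.04, -0.06 ± 0.03 and -0.02 ± 0.04 (SE; adjusted p = 0.793, 0.205 and 0.742, edgeR's quasi-likelihood test).

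Between the factors, matrix genes on either side of GFP were called higher under Nfya more often than under Nfe2l1, where all genes tested gave 25.2% and 25.4%. Among the 18 collagens 14 were called higher under Nfya than under Nfe2l1, 0 lower, and 4 showed no call, and among the 19 elastic fibre genes 12 were called higher, 5 lower and 2 showed no call. The short-chain collagen Col8a2 stood at 7.64, 6.78 and 7.53 CPM with GFP, 54.5, 58.2 and 59.8 with Nfya and 29.1, 24.5 and 29.3 with Nfe2l1 (1.03 ± 0.06, adjusted p = 2.17e-09, edgeR's quasi-likelihood test). Lum, the proteoglycan lumican that spaces collagen fibrils, stood at 13.0, 11.6 and 11.2 CPM with GFP, 58.6, 57.3 and 56.6 with Nfya and 29.4, 30.2 and 30.9 with Nfe2l1 (0.91 ± 0.05). Proteases went both ways. Mmp9, a gelatinase, stood at 3.36, 2.95 and 1.93 CPM with GFP, 6.79, 6.42 and 6.46 with Nfya and 20.3, 18.8 and 20.7 with Nfe2l1 (-1.62 ± 0.13, adjusted p = 3.40e-08), and Mmp19 showed the same order (-0.96 ± 0.05), whereas the procollagen peptidase Adamts2 was higher under Nfya (0.52 ± 0.03). Of the 18 protease and inhibitor genes 13 were called higher under Nfya, 2 under Nfe2l1.

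Fibroblast markers moved with the matrix genes. Of 16 tested 13 were above every GFP library and 0 below, and their summed level was 2202 to 2333 CPM with GFP, 3473 to 3502 with Nfya and 3020 to 3215 with Nfe2l1. The list shares collagens, fibronectin and cross-linking genes with the matrix lists, but markers outside the matrix were above GFP as well. Tcf21, a transcription factor of cardiac fibroblasts, stood at 3.06, 2.95 and 3.15 CPM with GFP, 16.7, 16.5 and 16.2 with Nfya and 9.55, 9.41 and 10.7 with Nfe2l1. Ddr2, a collagen receptor, stood at 33.9, 34.2 and 31.7 CPM with GFP, 92.7, 95.2 and 96.4 with Nfya and 86.6, 83.0 and 91.5 with Nfe2l1. In these bulk libraries more fibroblasts and more RNA of these genes per fibroblast cannot be told apart, and the same holds for every cell type here.

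Cardiomyocyte markers were nearly absent from the common response. Of 14 tested only Myl2, the regulatory light chain of ventricular myosin, was above every GFP library and 0 were below, with a summed level of 4198 to 4613 CPM with GFP, 4498 to 4567 with Nfya and 4032 to 4382 with Nfe2l1, ranges that overlap. Myl2 stood at 42.6, 42.9 and 42.4 CPM with GFP, 52.9, 53.5 and 51.8 with Nfya and 47.9, 48.5 and 44.2 with Nfe2l1. Of 36 sarcomere and Z-disc genes tested 5 were above and 5 below. Xirp2, an actin-binding protein of the intercalated disc, was above, at 986, 975 and 1039 CPM with GFP, 1251, 1260 and 1247 with Nfya and 1294, 1335 and 1241 with Nfe2l1, and Cmya5, a desmin-binding protein, was below, at 504, 490 and 504 CPM with GFP, 384, 377 and 372 with Nfya and 347, 332 and 355 with Nfe2l1.

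Markers of other cell types, apart from erythroid cells, were also more often above GFP than below. Endothelial markers were above GFP for 7 of 13 and below for 1, the VEGF receptor gene Kdr, and their summed level was 341 to 366 CPM with GFP, 485 to 505 with Nfya and 501 to 549 with Nfe2l1, with Cldn5 and Robo4 at 0 in every library. Tek, the angiopoietin receptor, stood at 20.2, 15.9 and 20.1 CPM with GFP, 65.3, 64.7 and 63.7 with Nfya and 66.4, 63.0 and 74.7 with Nfe2l1. Macrophage and leukocyte markers were above for 6 of 10 and below for 0, with a summed level of 81.8 to 104 CPM with GFP, 119 to 131 with Nfya and 122 to 136 with Nfe2l1, and with the T cell marker Cd3e at 0 throughout. Cd14, the co-receptor for lipopolysaccharide, stood at 4.74, 5.60 and 4.55 CPM with GFP, 12.5, 12.2 and 12.2 with Nfya and 15.9, 17.4 and 18.6 with Nfe2l1. Epicardial and mesothelial markers split, 8 of 11 above and 3 (Krt18, Aldh1a2, Gpm6a) below, with a summed level of 278 to 293 CPM with GFP, 275 to 298 with Nfya and 358 to 376 with Nfe2l1. Smooth muscle and pericyte markers were above for 3 of 12 and below for 1, Schwann and neural markers above for 3 of 6 and below for 1, and of 2 erythroid markers tested 0 were on either side. What share of the common response these cells account for was not tested.

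Growth factors and their receptors were above GFP for 20 of 40 genes and below for 7. Ligands included Hgf, Igf1, Igf2, Fgf10, Vegfc, Vegfd, Hbegf, Pdgfb and Gas6, and receptors included Met, Igf1r, Pdgfra, Pdgfrb, Egfr and Axl, while Pdgfa, Pdgfc, Fgf9, Fgfr1, Fgfr2, Erbb2 and Bdnf were below. Egfr, the receptor of epidermal growth factor, stood at 14.1, 16.5 and 13.5 CPM with GFP, 61.2, 57.2 and 62.3 with Nfya and 39.0, 42.1 and 45.7 with Nfe2l1 (difference 0.49 ± 0.06, adjusted p = 5.20e-06, edgeR's quasi-likelihood test). Igfbp6, which binds insulin-like growth factor II, ranked the factors the other way, at 10.2, 11.9 and 13.0 CPM with GFP, 25.3, 26.1 and 27.6 with Nfya and 42.7, 42.7 and 44.7 with Nfe2l1 (-0.74 ± 0.06). Of the 27 genes on either side of GFP 16 were called higher under Nfya (25.2% of all genes tested) and 5 under Nfe2l1 (25.4%).

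In TGF-beta and BMP signalling 10 of 32 genes were above GFP and 4 (Smad7, Id2, Id4, Fstl3) below, the latter including target genes of the pathway. Gdf6, a BMP family ligand, stood at 6.72, 6.49 and 6.48 CPM with GFP, 42.4, 41.9 and 43.1 with Nfya and 20.2, 19.8 and 18.9 with Nfe2l1. Bmp6, another ligand, stood at 11.6, 11.1 and 10.7 CPM with GFP, 25.3, 27.2 and 29.3 with Nfya and 41.1, 44.1 and 42.4 with Nfe2l1. The 2 ligands thus rank the factors in opposite order (1.10 ± 0.06 and -0.66 ± 0.06, adjusted p = 8.14e-10 and 3.48e-07, edgeR's quasi-likelihood test). Wnt signalling was split, with 6 of 27 above GFP (the ligand Wnt2, the receptor Fzd7, the antagonists Sfrp2 and Frzb and the agonists Rspo1 and Rspo3) and 7 below (the ligands Wnt2b, Wnt4, Wnt5a and Wnt11, the antagonist Sfrp1, the transcription factor Lef1 and Porcn, which acylates Wnt ligands). Notch signalling had 3 of 14 above and 4 below. Its ligand Jag2 stood at 81.0, 80.9 and 82.1 CPM with GFP, 23.6, 22.9 and 18.0 with Nfya and 18.0, 18.8 and 15.7 with Nfe2l1, and of its target genes Hey1 and Hey2 were below GFP. Integrins were above for 5 of 18 and below for 2.

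Innate immune genes lay on both sides of GFP. Complement components and regulators were above GFP for 9 of 17 and below for 2 (C3 and Cfp). C1s, a protease that starts the classical pathway, stood at 27.4, 21.8 and 21.5 CPM with GFP, 91.2, 87.7 and 83.8 with Nfya and 76.1, 75.5 and 72.2 with Nfe2l1. Cytokines, chemokines and NF-kB targets were above for 10 of 29 and below for 4 (Nfkbia, Nfkbiz, Rel and Ccl20). Tlr4, the receptor for lipopolysaccharide, stood at 6.72, 8.85 and 6.30 CPM with GFP, 33.9, 28.7 and 33.2 with Nfya and 41.4, 40.1 and 47.3 with Nfe2l1.

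Interferon response genes were instead below GFP for 10 of 35 and above for 3. Bst2, the antiviral protein tetherin, stood at 14.5, 19.5 and 18.9 CPM with GFP, 8.33, 7.34 and 7.66 with Nfya and 6.78, 8.18 and 9.03 with Nfe2l1. Rsad2, the antiviral enzyme viperin, stood at 42.3, 59.6 and 52.5 CPM with GFP, 26.2, 29.0 and 31.4 with Nfya and 22.9, 23.3 and 27.2 with Nfe2l1. Gbp2, a guanylate-binding protein induced by interferon gamma, went the other way, at 29.3, 34.2 and 29.9 CPM with GFP, 72.8, 79.6 and 79.9 with Nfya and 77.0, 69.4 and 69.6 with Nfe2l1. The summed level of the list was 1185 to 1551 CPM with GFP, 1251 to 1376 with Nfya and 1088 to 1150 with Nfe2l1, so the GFP libraries spread more here than the factor libraries, and the Nfya range lies within that of GFP. Antigen presentation genes were above for 3 of 14 and below for 1, a count that ranged from 0 with DESeq2's size factors to 2 without GFP replicate 3.

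Calcium handling and ion channel genes had the largest share below GFP, 16 of 39, with 7 above. Among the 16 were the potassium channel genes Kcnj3, Kcnj5, Kcnj11, Kcnj12, Kcnh2, Kcnd3 and Kcna4, the pacemaker channels Hcn2 and Hcn4, the T-type calcium channels Cacna1g and Cacna1h and the gap junction genes Gja1 and Gjc1. Scn4b, a beta subunit of the sodium channel, stood at 53.03, 55.4 and 49.5 CPM with GFP, 14.3, 15.4 and 13.8 with Nfya and 11.1, 11.9 and 13.7 with Nfe2l1. Kcnd3, which carries the transient outward potassium current, stood at 93.2, 90.8 and 84.6 CPM with GFP, 53.2, 51.2 and 55.0 with Nfya and 48.1, 46.8 and 48.1 with Nfe2l1. Kcnj3, a channel opened by acetylcholine through G proteins, stood at 55.9, 53.5 and 55.8 CPM with GFP, 32.9, 29.0 and 30.6 with Nfya and 33.9, 31.0 and 34.7 with Nfe2l1. The L-type calcium channel genes Cacna1c, Cacnb2 and Cacna2d1 and the kinase Camk2d stood on the higher side. Of the 23 genes on either side, 12 were called higher under Nfya than under Nfe2l1 (25.2% of all genes tested) and 1 lower (25.4%).

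Immediate early genes were below GFP for 10 of 30 and above for 0, or above for 2 when the rule was applied with TMM or DESeq2 scaling in place of library totals. Fos, a subunit of the AP-1 factor, stood at 31.5, 30.2 and 33.1 CPM with GFP, 12.8, 12.4 and 12.3 with Nfya and 10.0, 10.2 and 13.0 with Nfe2l1. Nr4a1, an orphan nuclear receptor, stood at 76.6, 76.5 and 69.2 CPM with GFP, 50.9, 52.9 and 53.9 with Nfya and 42.0, 42.4 and 44.2 with Nfe2l1. Fosb, Jun, Myc, Klf6, Dusp4, Dusp5, Zfp36 and Btg2 completed the 10. Cytosolic heat shock genes were below for 10 of 29 and above for 3 (Hspa1l, Hspb3 and the regulator Hsf1). Hsph1, which recharges HSP70 with nucleotide, stood at 323, 313 and 335 CPM with GFP, 222, 222 and 219 with Nfya and 242, 232 and 231 with Nfe2l1, and its relative Hspa4l at 67.7, 68.1 and 63.2, then 46.3, 47.8 and 45.9, then 24.0, 27.2 and 27.9 CPM in the same order of groups.

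Glycolysis, fatty acid oxidation and lipid synthesis lists held 26.5% to 27.6% of their tested genes below GFP, where all genes tested held 19.6%. Above GFP they held 6.67% to 14.7%, where all genes tested held 17.7%. Their median log2 fold changes for the mean of both factors were near 0 (-0.04 to 0.01). Glycolysis and glucose uptake genes were below GFP for 8 of 29 and above for 2, fatty acid oxidation and PPAR target genes below for 8 of 30 and above for 2, and cholesterol and fatty acid synthesis genes below for 9 of 34 and above for 5, the last count being 10 without GFP replicate 3. Most of these differences were small. Pfkl, the liver form of phosphofructokinase, stood at 140, 134 and 134 CPM with GFP, 114, 110 and 108 with Nfya and 92.3, 94.8 and 94.4 with Nfe2l1. Cpt1a, which admits fatty acids to mitochondria, stood at 251, 252 and 256 CPM with GFP, 218, 214 and 216 with Nfya and 211, 207 and 215 with Nfe2l1. Pparg, a nuclear receptor for fatty acids, stood at 16.0, 15.9 and 13.3 CPM with GFP, 7.87, 8.10 and 7.21 with Nfya and 8.47, 8.33 and 8.21 with Nfe2l1. Oxidative phosphorylation genes were above for 2 and below for 2 of 39, with 4 above when GFP replicate 3 is left out.

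**Figure D4:**
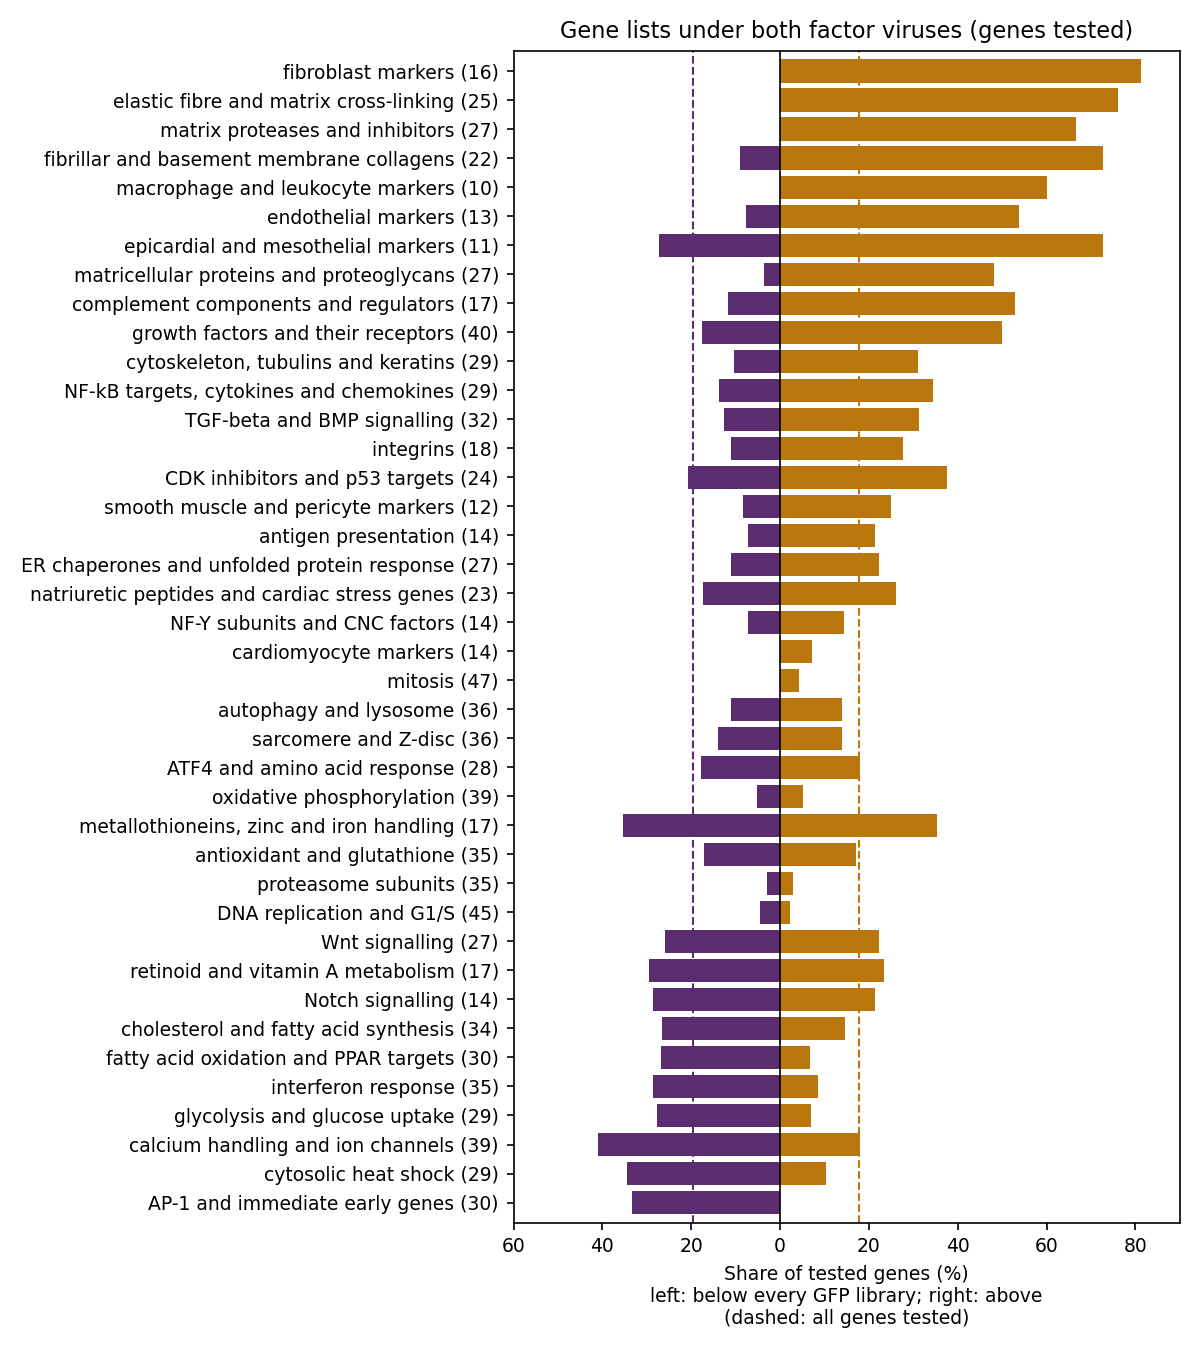
Share of the tested genes of each list (number in brackets) that lie below every GFP library (left, purple) or above (right, orange) in all 6 factor libraries; dashed lines are the shares over all genes tested, 19.6% and 17.7%. Fibroblast, elastic fibre, collagen and epicardial lists reach furthest to the right, and ion channel, metal handling, heat shock and immediate early genes furthest to the left.

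Proteasome, replication and mitosis lists held few of the common genes, and in each the summed levels under the 2 viruses lay on opposite sides of GFP. Proteasome sums were 4589 to 4827 CPM with GFP, 4291 to 4331 with Nfya and 5229 to 5625 with Nfe2l1. In that order replication sums were 3662 to 3725, 4241 to 4377 and 2763 to 2840. Mitosis sums were 3018 to 3237, 4686 to 4769 and 2773 to 2958. Of 35 proteasome subunit genes 1 was above GFP under both viruses (Psmd8, a subunit of the lid) and 1 below (Psme3, an activator cap), shares of 2.86% each. Of 45 DNA replication and G1/S genes 1 was above (Tk1, thymidine kinase) and 2 below (Gins2 and Cdk2), and of 47 mitosis genes 2 were above (Cdc25c and Kif2c) and 0 below. Antioxidant and glutathione genes were above for 6 of 35 and below for 6, 17.1% each and close to the shares over all genes tested, and Gclc, the catalytic subunit of the enzyme that limits glutathione synthesis, was among the latter, at 244, 240 and 253 CPM with GFP, 193, 189 and 188 with Nfya and 184, 180 and 181 with Nfe2l1. Among the NF-Y subunits, cap'n'collar factors and their partners, Nfya and the repressor Bach2 were above GFP and the small MAF gene Mafk below, of 14 tested. Bach2 stood at 32.6, 27.4 and 27.7 CPM with GFP, 53.8, 50.0 and 43.4 with Nfya and 48.4, 53.4 and 48.8 with Nfe2l1.

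Cell cycle inhibitors and p53 targets were above for 9 of 24 and below for 5. Cdkn2a, which encodes the inhibitor p16 and the p53 activator ARF, stood at 0.917, 1.18 and 1.23 CPM with GFP, 5.09, 6.42 and 7.06 with Nfya and 6.01, 5.56 and 7.11 with Nfe2l1, with no called difference between the factors (-0.03 ± 0.18, adjusted p = 0.903, edgeR's quasi-likelihood test). Metal handling genes were above for 6 and below for 6 of 17, and Slc39a8, an importer of zinc and manganese, stood at 8.56, 9.88 and 10.2 CPM with GFP, 15.4, 15.9 and 17.9 with Nfya and 36.3, 34.3 and 37.5 with Nfe2l1. Retinoid metabolism was divided by enzyme: Aldh1a3 was above GFP (12.4, 9.29 and 9.80 CPM, against 46.9, 50.6 and 53.2 with Nfya and 35.6, 35.5 and 38.3 with Nfe2l1), and its relatives Aldh1a1 and Aldh1a2, which also make retinoic acid, were below. A pair of renin-angiotensin genes on the list of cardiac stress genes were above GFP. Ace, the angiotensin-converting enzyme, stood at 7.18, 6.63 and 6.48 CPM with GFP, 25.1, 20.3 and 21.8 with Nfya and 18.8, 19.0 and 19.6 with Nfe2l1, and Agtr1a, an angiotensin II receptor, at 5.35, 4.72 and 5.25, then 17.6, 21.1 and 25.4, then 14.0, 13.7 and 13.1.

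Other lists were divided. Endoplasmic reticulum chaperones were above for 6 and below for 3 of 27 (5 below with TMM scaling), ATF4 targets above for 5 and below for 5 of 28, and autophagy and lysosome genes above for 5 and below for 4 of 36, with 11 above when GFP replicate 3 is left out. Cytoskeleton, tubulin and keratin genes were above for 9 and below for 3 of 29, and natriuretic peptide and cardiac stress genes above for 6 and below for 4 of 23.

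The 2 factors share the direction by the rule, and the question tested for each gene was whether the sizes differ. The rule can drop genes that differ between the factors, since both had to clear GFP. Shares of called differences among its genes were therefore not tested against the share over all genes tested. Over all genes tested, 50.6% differed between the Nfya and the Nfe2l1 libraries at an adjusted p below 0.05 (edgeR's quasi-likelihood test), 25.2% with Nfya above and 25.4% with Nfe2l1 above. Of the 2503 genes above GFP 1315 differed (52.5%), 614 with Nfya above and 701 with Nfe2l1 above. Of the 2772 genes below GFP 1066 differed (38.5%), 716 with Nfya above and 350 with Nfe2l1 above, so 67.2% of these calls had the Nfe2l1 libraries further below GFP, and Nfya was above in 49.7% of the calls over all genes tested. Among the genes above GFP the majority passed from Nfe2l1 to Nfya under some settings (45.1% to 51.7% with Nfya above), and among the genes below it did not (65.5% to 75.7%). Differences of at least 2-fold were rarer, 202 genes above GFP (66 with Nfya above, 136 with Nfe2l1 above) and 72 below (60 and 12).

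**Figure D5:**
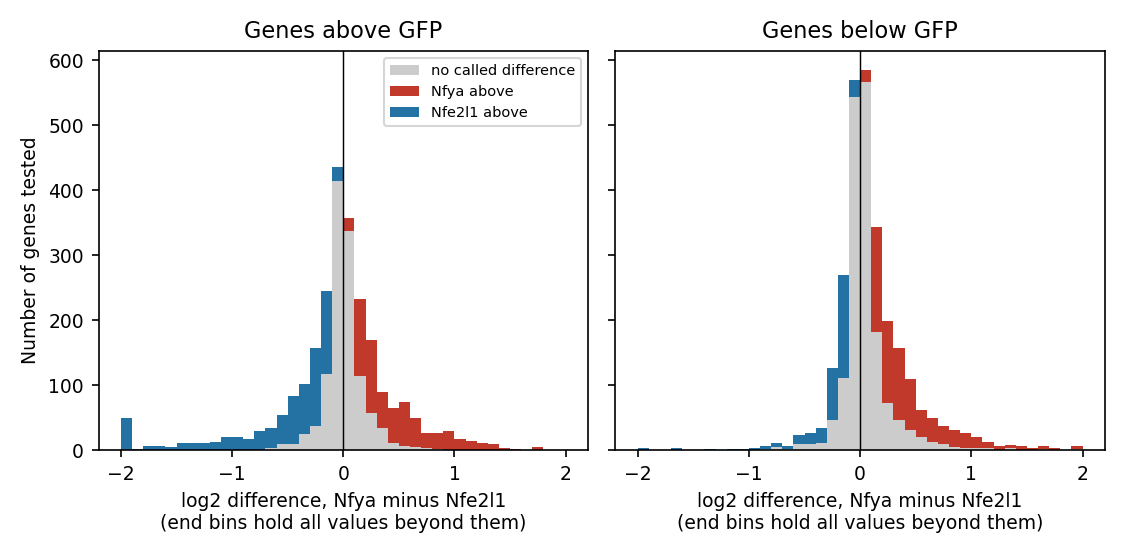
Number of tested genes (vertical axis) by log2 difference Nfya minus Nfe2l1 (horizontal axis, bins of 0.1, end bins holding all values beyond), for genes above GFP (left) and below (right); red and blue mark called differences with Nfya or Nfe2l1 above. Of the genes above GFP 614 are red and 701 blue, and of the genes below 716 and 350.

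The genes with the smallest differences are given first. Of the 571 genes at least 2-fold above GFP under both viruses, 169 were called higher under Nfya, 155 under Nfe2l1, and 247 had no call. Of the 323 at least 2-fold below, 77 were called higher under Nfya, 15 under Nfe2l1, and 231 had no call. Over all genes tested, 25.2% were called higher under Nfya and 25.4% under Nfe2l1. The choice of genes by both viruses shapes these counts, so they are a description. Fscn1, the actin-bundling protein fascin, stood at 11.9, 12.8 and 9.63 CPM with GFP, 23.8, 25.8 and 24.9 with Nfya and 23.3, 24.5 and 25.6 with Nfe2l1, a difference of 0.00 ± 0.08 between the factors. Tnfrsf11a, the receptor RANK, stood at 13.9, 17.0 and 19.4 CPM with GFP, 3.39, 3.67 and 3.15 with Nfya and 3.08, 3.09 and 3.97 with Nfe2l1, a difference of -0.02 ± 0.23. Chst14, a dermatan sulfotransferase, Kctd17, an adaptor protein, and Ly6i, a surface antigen gene whose family holds near copies, were as close above GFP (0.01 ± 0.08, -0.01 ± 0.10 and -0.01 ± 0.13). Clic3, a chloride channel family member, Fam57b, a ceramide synthase, and Wnt4 were as close below it (-0.01 ± 0.16, 0.01 ± 0.16 and -0.02 ± 0.21). These genes were picked for a small difference, and those that follow for a large one, so both are a description.

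Others shared only the side. Clca4, a secreted metalloprotease-like protein, had 2 counts in all with GFP, 14 with Nfya and 746 with Nfe2l1, ratios to GFP of 6.77 (95% exact interval 1.55 to 61.4) and 350 (96.6 to 2900), counting error only. Tubb4a, a beta tubulin of nerve cells, stood at 1.83, 1.03 and 0.875 CPM with GFP, 2.78, 2.60 and 3.00 with Nfya and 43.0, 45.4 and 46.6 with Nfe2l1, and Wfdc6a and Fmr1nb showed the same order (differences of -4.02 ± 0.12, -3.88 ± 0.18 and -3.81 ± 0.22). On the lower side Tmem200c, a membrane protein, stood at 42.8, 48.2 and 39.6 CPM with GFP, 2.31, 0.764 and 0.901 with Nfya and 25.0, 29.3 and 29.1 with Nfe2l1 (-4.40 ± 0.21), and Apoa2 had 112 counts with GFP and 0 with Nfya, at least 38.6-fold lower when 3 counts are taken as the floor of a group (-4.26 ± 1.36). The call for Apoa2 was lost without Nfe2l1 replicate 2 (adjusted p = 0.111).

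Higher under Nfya by the widest margins were the scavenger receptor genes Scara3 and Olr1, the protocadherin gene Pcdh20 and the growth factor gene Hgf among genes above GFP. Olr1, the receptor for oxidised LDL, stood at 6.72, 6.19 and 5.78 CPM with GFP, 37.8, 42.2 and 43.7 with Nfya and 11.2, 11.1 and 13.1 with Nfe2l1 (difference 1.78 ± 0.09). Pcdh20 stood at 14.8, 12.4 and 14.9 CPM with GFP, 62.8, 66.0 and 68.5 with Nfya and 17.7, 18.4 and 21.9 with Nfe2l1 (1.74 ± 0.07). For both, the Nfe2l1 libraries lie much nearer to GFP than to Nfya. Below GFP the neurotrophin gene Ntf4 differed by 1.76 ± 0.28, and Tsen34l1 by 4.74 ± 1.6, a value that rests on Nfya replicate 3 alone (5.25 CPM against 0.154 and 0 in the other Nfya libraries) and was lost without it (0.47, adjusted p = 0.835) and without Nfe2l1 replicate 2 or 3 (0.0646 and 0.0651). Genes at 0 in every GFP library that were tested were Cd52 and Kcne5. Cd52, a leukocyte surface antigen, was at least 1.61-fold higher with Nfya and 58.5-fold with Nfe2l1 against the same floor, and Kcne5, a potassium channel subunit, at least 6.45-fold and 30.0-fold.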

How the data were processed

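Per the labels' protocols, mRNA libraries were made from infected rat heart cell cultures, 3 per virus. The deposited table holds raw counts per gene, 1 column per library, and the submitters' processing notes name featureCounts 1.6.0, FastQC 0.11.4 and edgeR 3.20.5, with rn6, mm10 and GRCm38 as builds. Aligner, annotation and strand setting are not given in those sources, so overlapping and antisense genes, and close copies such as Ces2g, Clec2d2 and Ly6i, may share reads. The authors' RPKM values, per kilobase and per 1000000 reads per the file headers, were used only for levels between genes. The authors' own comparisons were not used.

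CPM was taken over library totals for the rule. Of 28935 genes 6798 had no count, and edgeR's filter kept 14151, holding 99.8% of counts. edgeR 4.0.16 (TMM scaling, quasi-likelihood test, Benjamini-Hochberg adjustment over all genes tested, threshold 0.05) was fitted to all 9 libraries in R 4.3.3 with limma 3.58.1, and was tested on simulated data. Mean ± SD is over 3 libraries, ± beside a log2 difference is the SE, and intervals and the floor of 3 counts cover counting error only, since molecules carry no identifiers.

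Members and gene lists were chosen with earlier results of these data known. Of 1116 list genes 1094 were found, 10 of them by an older name. Named genes had to reach a mean of 5 CPM in the higher group: the 15 on each side with the largest smaller fold of the 2 viruses, those at least 2-fold from GFP under both with the smallest difference (4 on each side), the 6 with the largest called difference each way, up to 4 per list, and the factors' own genes. Genes named without values to spell out a list, those at the edge of the rule, Cd52 and Kcne5 were named after their values were seen. Replicates 1 and 2 of Nfya differed by no more than sampling noise over all genes (chi-square per degree of freedom 1.007) but by more in thinly covered genes (at most 0.1 counts per base), as every pair within a group did, and were kept as 2 samples. Same-numbered libraries did not deviate together, so the numbers were not used as pairs. Alternatives were other scalings, DESeq2 1.42.0, other filters, a stricter threshold, a replicate block and leaving out each library.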

Additional observations from a re-analysis of the deposited data

How the results depend on the processing

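No named difference that was called, in the main fit or in the alternative, changed sign, but 2 majorities turned. The sign of differences called in neither was not followed. Among genes above GFP, calls with Nfya above outnumbered those with Nfe2l1 above with library totals alone (660 and 641), at 5 mean CPM (610 and 569) and without GFP replicate 1 (658 and 639), GFP replicate 2 (664 and 639), Nfe2l1 replicate 1 (586 and 580) or Nfe2l1 replicate 3 (625 and 584). For both viruses against GFP, higher calls outnumbered lower ones with RLE (4005 and 3955), DESeq2 (2945 and 2889), no filter (4534 and 3904), 5 mean CPM (3769 and 3163) and without GFP replicate 1, GFP replicate 2, Nfe2l1 replicate 1 or Nfe2l1 replicate 3. The common response held 2602 genes above and 3210 below GFP with TMM scaling (2563 and 3026 of them in common with library totals), and leaving out a library, which can only add genes, gave 2844 to 3130 and 3188 to 3812. With TMM scaling the share of counts of the genes above GFP differed between Nfya and GFP by 4.15 percentage points and that of the genes below by -4.59, against 4.33 and -4.32. DESeq2 called fewer differences between the viruses: 408 with Nfya above among genes above GFP, and 476 with Nfya above and 165 with Nfe2l1 above among genes below. At an adjusted p below 0.01, 221 genes below GFP had Nfe2l1 above. Leaving out a library gave 230 to 358 for that count, 230 without Nfe2l1 replicate 1 and 234 without Nfe2l1 replicate 3. The cause was not tested. Same-numbered libraries had correlations of -0.065 to 0.049, and the replicate block gave 3782 and 4020 genes called higher and lower for both viruses against GFP, and 597 and 686 (Nfya above, Nfe2l1 above) among genes above GFP and 688 and 331 among those below. For named genes the difference between the viruses fell under the threshold in 94 of 2903 gene and setting pairs and passed it anew in 45. Depth limits the scarce genes: Clca4, Clec18a, Apoa2, Cd52, Kcne5 and Tsen34l1 rest on few counts in at least 1 group. After the data were seen, the rule was also applied to genes with at most 0.5 counts per base, which kept 2549 above and 2746 below, and to the lists without GFP replicate 3.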
